A study of Mus musculus with 12 samples.

Results

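The Egr and Nr4a genes encode 2 small families of transcription factors that cells switch on within minutes of a stimulus. The members were chosen by name: Egr1, Egr2, Egr3, and Egr4, and Nr4a1, Nr4a2, and Nr4a3, which are 7 of the 54119 genes with summed counts. All 7 passed the filter on low counts, as did 19150 genes in all. They were measured in blood vessels isolated from the cerebrum of wild type C57BL6 mice aged 2 to 3 months. The mice received lipopolysaccharide (LPS), a component of the bacterial outer membrane that starts systemic inflammation, by intraperitoneal injection at 10 mg/kg, and vessels were taken 15 min, 30 min, or 4 h later. Control mice received PBS, and the time at which they were killed is not given in the sources used here. Each of the 4 groups had 3 libraries, and each library pooled 1 male and 1 female, so p-values measure the spread between pools of 2 mice. A difference from handling the groups apart would not enter that spread. The question was how the level of each factor moved from PBS through the 3 times after LPS.

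Egr proteins carry zinc fingers that bind GC-rich sites, and NAB co-repressors bind Egr1, Egr2, and Egr3 and limit their activity. Nr4a proteins are orphan nuclear receptors, built like hormone receptors but with no established hormone, and bind DNA alone or, for Nr4a1 and Nr4a2, together with retinoid X receptors. Both families belong to the immediate early genes, whose first transcripts need no new protein. Their promoters respond to kinases that act through serum response factor (SRF) and its partners, CREB, and MEF2. Egr1 is known in vessel walls from injury and shear stress, and Nr4a1 from inflamed endothelium and macrophages, while Egr3, Egr4, and Nr4a2 are also known from neurons.

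Libraries held 18.3 to 25.9 M fragments assigned to transcripts. Levels are given as CPM, fragments scaled to a common library total with TMM factors, and, between genes, as TPM, which also divides by transcript length. The factors were near 1.17 in PBS and 0.717 at LPS 4 h. Fold changes are log2 values from edgeR, ± an SE derived from its F statistic without a fold limit. The 95% intervals use that SE and a normal quantile, so they are narrower than a t quantile would make them. A gene was called when its change exceeded 1.5-fold at an adjusted p below 0.05 over all genes tested. Endothelial markers were present in every library, and the summed level of 8 of them, 8912 to 9153 CPM in PBS, was 5682 to 5721 CPM at LPS 4 h. Of the 8, 5 were called lower at that time and 2 higher, Cdh5 (486 to 1889 CPM as means) and Esam (438 to 728 CPM). Over all genes 13.8% were called lower then and 19% higher. A bulk library does not tell fewer cells of a type from less RNA per cell.

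All 7 members were higher at LPS 15 min than in PBS, although the call of Nr4a2 was lost under 5 of 10 other settings, and all 7 were higher at LPS 30 min. The share of all genes called higher was 3.31% at LPS 15 min and 3.78% at LPS 30 min. At LPS 4 h the members parted: 5 were still above PBS, Nr4a2 was below it, and Egr4 was not called. At that time 32.8% of all genes were called, of which the higher ones made up 19% of genes and the lower ones 13.8%. Over the 7 members the log2 fold changes had medians of 2.23, 5.01, and 2.37 at the 3 times, and over all genes tested medians of -0.0021, -0.0102, and -0.0098. Groups without overlap in CPM were common. They occurred in 49.3%, 46.7%, and 70.9% of all genes for the 3 times against PBS. For LPS 30 min against LPS 15 min the share was 47.6%. It was 67.5% for LPS 4 h against LPS 30 min and 73.3% for LPS 4 h against LPS 15 min.

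**Figure D1:**
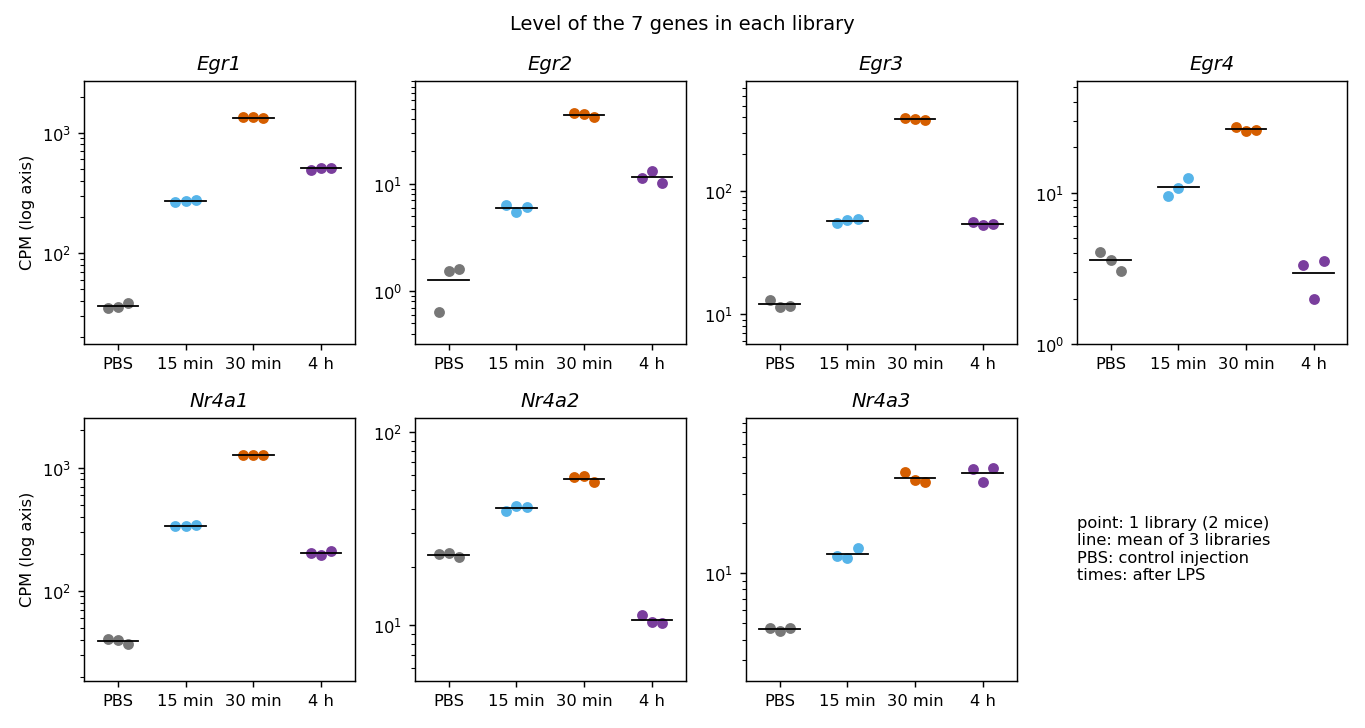
Level of each gene in CPM (log axis) in the 12 libraries, by group; points are libraries and lines are the means of 3. Every gene is higher at 15 and 30 min than in PBS. In CPM at 4 h, Egr4 overlaps the PBS values, Nr4a2 is below them, and Nr4a3 stays at its 30 min level.

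Egr1, on chr18:34859823-34864984 of GRCm38 (plus strand), is the family member best known from vessels. Its PBS libraries held 35.0, 35.6, and 38.5 CPM. At LPS 15 min the values were 265, 270, and 279 CPM, at LPS 30 min 1346, 1341, and 1329 CPM, and at LPS 4 h 495, 506, and 513 CPM. In CPM the groups were far apart and the libraries within each were close together. In TPM, without TMM factors, LPS 15 min (131 to 135) and LPS 4 h (133 to 136) overlapped. Against PBS the log2 fold change was 2.90 ± 0.03 (adjusted p = 1.93e-24) at 15 min, 5.20 ± 0.03 (adjusted p = 3.67e-30) at 30 min, and 3.80 ± 0.03 (adjusted p = 2.14e-28) at 4 h. These are 7.47-fold, 36.8-fold, and 13.9-fold rises. At 30 min it ranked 42 among the 19150 genes by log2 fold change.

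Egr2, on chr10:67535475-67542188 (plus strand), is best known from myelinating Schwann cells and hindbrain patterning, and it was the least abundant member in PBS. The PBS libraries held 17, 45, and 42 fragments, or 0.637, 1.52, and 1.60 CPM. Values rose to 6.27, 5.44, and 6.08 CPM at LPS 15 min and 45.4, 44.3, and 41.5 CPM at LPS 30 min, and were 11.3, 13.2, and 10.1 CPM at LPS 4 h. One PBS library was at under 0.7 CPM while the others were above 1.5, yet no PBS value reached any LPS value. The log2 fold change was 2.23 ± 0.19 (adjusted p = 1.53e-07), 5.11 ± 0.16 (adjusted p = 5.87e-17), and 3.19 ± 0.18 (adjusted p = 3.69e-12) at the 3 times. Leaving out 1 library at a time moved the 30 min value between 4.81 and 5.31, with the call kept.

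Egr3, on chr14:70077203-70082614 (plus strand), acts in muscle spindles, lymphocytes, and neurons. It was at 13.04, 11.4, and 11.7 CPM in PBS, and at 55.4, 58.5, and 59.2 CPM at LPS 15 min. The LPS 30 min libraries held 396, 390, and 380 CPM, and the LPS 4 h libraries 56.6, 53.0, and 54.4 CPM. The 4 h values overlapped those at 15 min in CPM. In TPM, which carries no TMM factor, they did not, with 24.4 to 26.6 at 15 min and 12.4 to 14.3 at 4 h. The log2 fold change against PBS was 2.26 ± 0.05 (adjusted p = 4.61e-18), 5.01 ± 0.05 (adjusted p = 1.34e-27), and 2.18 ± 0.05 (adjusted p = 1.94e-18).

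Egr4, on chr6:85511121-85513589 (minus strand), is known mainly from neurons and germ cells. Its PBS libraries held 4.08, 3.61, and 3.05 CPM. It was at 9.53, 10.8, and 12.6 CPM at LPS 15 min, at 27.4, 25.7, and 26.0 CPM at LPS 30 min, and at 3.31, 2.00, and 3.55 CPM at LPS 4 h. In CPM the last group overlapped PBS, with 1 library below all PBS values. In TPM, without TMM factors, it did not, with 2.60 to 3.45 in PBS and 0.911 to 1.53 at 4 h. With scaling by library size alone Egr4 was called lower at 4 h (-0.99). The log2 fold change was 1.61 ± 0.15 (adjusted p = 2.73e-06) at 15 min, 2.88 ± 0.14 (adjusted p = 2.42e-12) at 30 min, and -0.29 (95% interval -0.66 to 0.09, adjusted p = 1) at 4 h. Of the 4 Egr genes it had the smallest change at each time.

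Nr4a1, also called Nur77, on chr15:101254269-101274795 (plus strand), was the most abundant member in PBS, at 34.7, 33.7, and 30.1 TPM. In CPM the PBS values were 40.3, 39.8, and 37.1, those at LPS 15 min 334, 334, and 343, those at LPS 30 min 1254, 1256, and 1268, and those at LPS 4 h 203, 195, and 210. No 2 groups overlapped. Its log2 fold change at 15 min, 3.11 ± 0.03 (adjusted p = 7.24e-25), was the largest of the 7 members at that time and ranked 49 among the genes tested. It reached 5.01 ± 0.03 (adjusted p = 6.43e-30) at 30 min and was 2.37 ± 0.03 (adjusted p = 2.13e-23) at 4 h.

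Nr4a2, also called Nurr1, on chr2:57106830-57124003 (minus strand), is required for midbrain dopamine neurons. The PBS libraries held 23.4, 23.7, and 22.6 CPM. They were followed by 39.1, 41.2, and 41.1 CPM at LPS 15 min, 58.2, 59.2, and 54.8 CPM at LPS 30 min, and 11.3, 10.4, and 10.3 CPM at LPS 4 h. The early rise was modest and every 4 h library was below every PBS library. The log2 fold change was 0.80 ± 0.06 (adjusted p = 0.00257), 1.30 ± 0.05 (adjusted p = 3.92e-11), and -1.13 ± 0.07 (adjusted p = 1.10e-07), that is 1.74-fold higher, 2.47-fold higher, and 2.19-fold lower. The 15 min call was lost under 5 of 10 other settings: DESeq2 (0.78, adjusted p = 0.0602), a correction for average transcript length (0.64, adjusted p = 1), limma with 1 or 10 added (0.63 with either, adjusted p = 1), and protein-coding transcripts only (0.90, adjusted p = 0.157).

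Nr4a3, also called Nor1, on chr4:48045153-48086447 (plus strand), rose in CPM and was still at its LPS 30 min level at LPS 4 h. Its PBS libraries held 4.68, 4.52, and 4.70 CPM, and its LPS 15 min libraries 12.7, 12.3, and 14.1 CPM. At LPS 30 min the level was 40.3, 36.0, and 35.1 CPM, and at LPS 4 h 41.9, 35.2, and 42.8 CPM. The last 2 groups overlapped. In TPM, without TMM factors, they did not, with 8.81 to 9.99 at 30 min and 5.49 to 6.95 at 4 h. The log2 fold change was 1.49 ± 0.10 (adjusted p = 9.52e-08), 3.00 ± 0.09 (adjusted p = 3.27e-16), and 3.11 ± 0.10 (adjusted p = 2.89e-17).

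**Figure D2:**
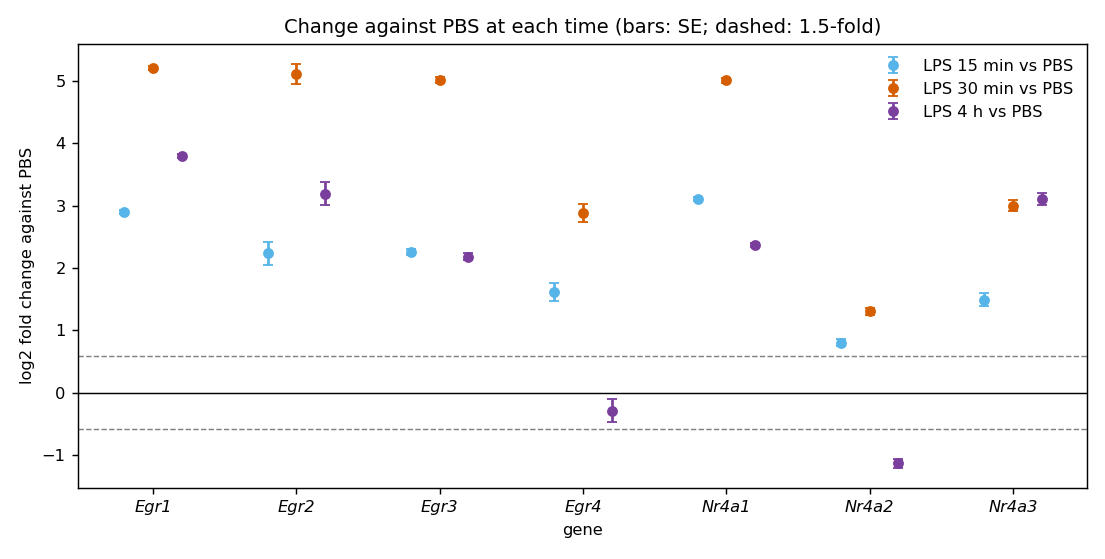
Log2 fold change of each gene against PBS at LPS 15 min, LPS 30 min, and LPS 4 h, from 3 libraries a group; bars are SE and dashed lines mark a 1.5-fold change. Egr1, Egr2, Egr3, and Nr4a1 stand between 5.01 and 5.20 at 30 min, and at 4 h the values run from -1.13 (Nr4a2) to 3.80 (Egr1).

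Between LPS 15 min and LPS 30 min the level of 6 of 7 members rose, where 2.69% of all genes were called higher. The largest rise was in Egr2, by 2.88 ± 0.13 (adjusted p = 3.91e-13), and the smallest called one in Egr4, by 1.27 ± 0.13 (adjusted p = 9.08e-05). With limma the Egr4 rise was 1.22 and 1.19 with 1 and 10 added and was not called (adjusted p = 0.0741 and 0.06). Nr4a2 differed by 0.50 (95% interval 0.40 to 0.61), which is under 1.5-fold, and was not called, although its groups did not overlap. Nr4a1 had risen most by 15 min and then gained 1.90 ± 0.03, less than Egr1 with 2.30 ± 0.03 and Egr3 with 2.75 ± 0.04.

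Between LPS 30 min and LPS 4 h the level of 6 of 7 members fell, where 11.8% of all genes were called lower. Egr4 fell by 3.16 ± 0.16 (adjusted p = 5.25e-13) on the log2 scale, Egr3 by 2.83 ± 0.04, Nr4a1 by 2.64 ± 0.03, and Nr4a2 by 2.43 ± 0.07. Egr2 fell by 1.92 ± 0.12 and Egr1 by 1.41 ± 0.03 (adjusted p = 4.94e-19). Nr4a3 was the exception, with a difference of 0.10 (95% interval -0.05 to 0.26). With scaling by library size alone, which put the median of all genes 0.58 lower at LPS 4 h, that difference was -0.43 and also not called.

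Set against LPS 15 min, LPS 4 h divided the members: Egr1 (0.90 ± 0.03), Egr2 (0.96 ± 0.14), and Nr4a3 (1.62 ± 0.08) were higher, and Egr4 (-1.90 ± 0.17), Nr4a1 (-0.73 ± 0.03), and Nr4a2 (-1.93 ± 0.07) were lower. Over all genes 19.4% were called higher and 16.6% lower. Egr3 did not differ beyond 1.5-fold (-0.08, 95% interval -0.16 to 0.01). With scaling by library size alone Egr1 (0.22) and Egr2 (0.28) were no longer called and Egr3 was called lower (-0.76, adjusted p = 0.000166). In TPM, without TMM factors, the groups overlapped for Egr1 (131 to 135 at 15 min, 133 to 136 at 4 h). They also overlapped for Egr2 (3.13 to 3.58 and 3.13 to 3.94). The call of Egr2 was also lost with limma (0.92 and 0.88 with 1 and 10 added).

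Per transcript length, the order of the members changed with time. In PBS the mean level was 32.8 TPM for Nr4a1, 18.4 for Egr1, 13.1 for Nr4a2, 5.45 for Egr3, 3.00 for Egr4, 1.65 for Nr4a3, and 0.731 for Egr2. At LPS 30 min Nr4a1 (783 TPM) and Egr1 (529 TPM) led, followed by Egr3 (146 TPM), and the other 4 lay between 9.24 and 23.2 TPM. At LPS 4 h Egr1 came first with 134 TPM, Nr4a1 was next with 82.2 TPM, and Nr4a3 (6.46 TPM) had passed Nr4a2 (2.83 TPM). Within a group no 2 neighbours in this order had overlapping libraries.

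Ratios of 2 members of a family within a library do not depend on the scaling between libraries. Of the 9 pairs compared, 8 changed their ratio over the 4 groups by an exact permutation test with adjustment over the 9. The 5 pairs described next had the smallest p the design allows, 6.49e-05 (exact permutation test, adjusted p = 9.74e-05). The Nr4a2 to Nr4a3 count ratio had a mean log2 value of 2.32 in PBS, 1.64 at 15 min, 0.63 at 30 min, and -1.90 at 4 h, so Nr4a2 began as the more abundant of the pair in fragments and ended as the less abundant. For Nr4a1 to Nr4a2 the ratio went from 0.75 to 3.06, 4.46, and 4.25. The ratio of Nr4a1 to Nr4a3 was 3.07, 4.69, 5.09, and 2.35. Within the Egr family, Egr1 to Egr4 widened at each time, from 3.35 to 4.63, 5.66, and 7.44, while Egr1 to Egr3 was 1.59, 2.23, 1.78, and 3.21. Egr1 to Egr2 was the pair that was not called (exact permutation p = 0.16), with means between 4.94 and 5.51.

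**Figure D3:**
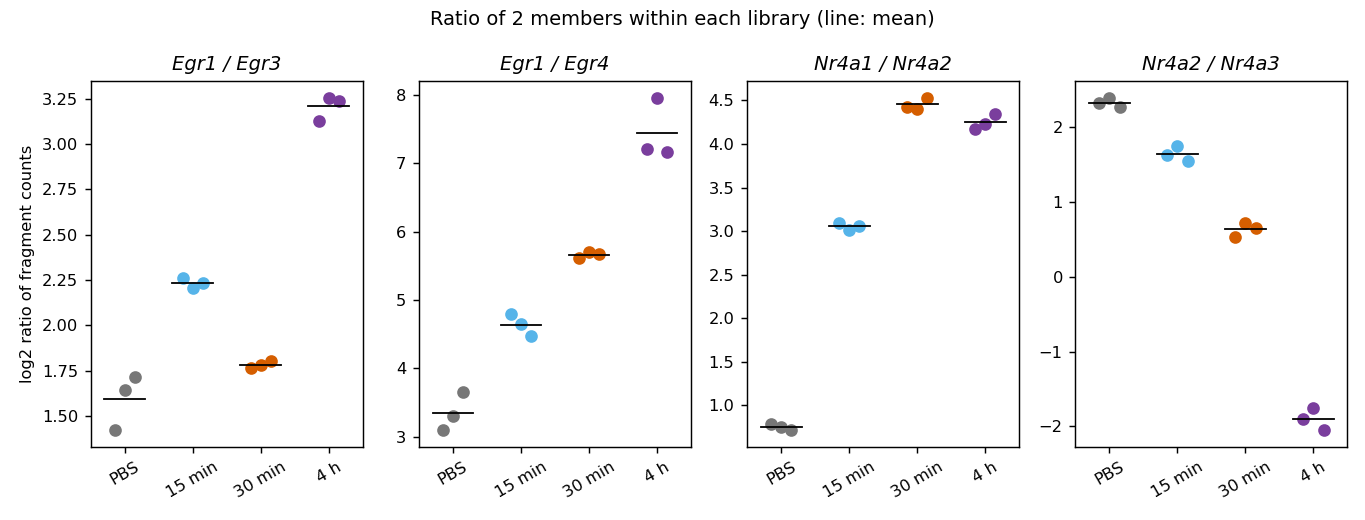
Log2 ratio of the fragment counts of 2 members of a family in each of the 12 libraries, by group, with group means as lines. Egr1 to Egr4 climbs from 3.35 in PBS to 7.44 at 4 h, and Nr4a2 to Nr4a3 drops from 2.32 to -1.90.

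The transcript estimates add a second layer. For Egr3 and Nr4a1 the annotation holds a transcript classed as retained intron, which is not protein coding. For Egr3 that transcript (Egr3-202, a single exon at 70078739-70082614) took 89.1%, 78.7%, and 70.2% of the gene's TPM in PBS, 65.4%, 63.5%, and 59.5% at LPS 15 min, 29.0%, 28.2%, and 33.3% at LPS 30 min, and 52.9%, 58.6%, and 31.6% at LPS 4 h. The share was thus highest in PBS and lowest at 30 min, with no overlap of those groups, and the 4 h libraries were spread wide. The protein-coding transcripts of Egr3 averaged 1.10 TPM in PBS, 9.56 at 15 min, 102 at 30 min, and 6.96 at 4 h. Counting these alone, the log2 fold change of Egr3 was 3.38, 7.10, and 3.83 at the 3 times in place of 2.26, 5.01, and 2.18, on as few as 14 fragments in a PBS library. With TMM factors LPS 4 h then stood 0.45 above LPS 15 min instead of 0.08 below it, and neither difference was called. In TPM, which carries no TMM factor, the protein-coding mean was lower at 4 h (6.96) than at 15 min (9.56), with overlapping libraries. The direction between these times thus differed with the scaling, and no change between them is read from the protein-coding transcripts. Salmon divides fragments that fit several transcripts by a model, so these shares are estimates.

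For Nr4a1 the retained-intron transcript (Nr4a1-204, at 101272861-101273847) followed another course. Its share of the gene's TPM was 14.9%, 19.0%, and 15.1% in PBS, 27.1%, 24.9%, and 24.6% at LPS 15 min, 11.8%, 11.1%, and 11.01% at LPS 30 min, and 6.76%, 7.48%, and 8.18% at LPS 4 h. No 2 groups overlapped, and the share was highest at 15 min. Its mean level was 5.38 TPM in PBS, 75.6 at 15 min, 88.4 at 30 min, and 6.14 at 4 h, while the protein-coding transcripts stood at 27.4, 221, 694, and 76.1 TPM. Between 15 and 30 min the retained-intron level thus moved little beside the protein-coding one.

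**Figure D4:**
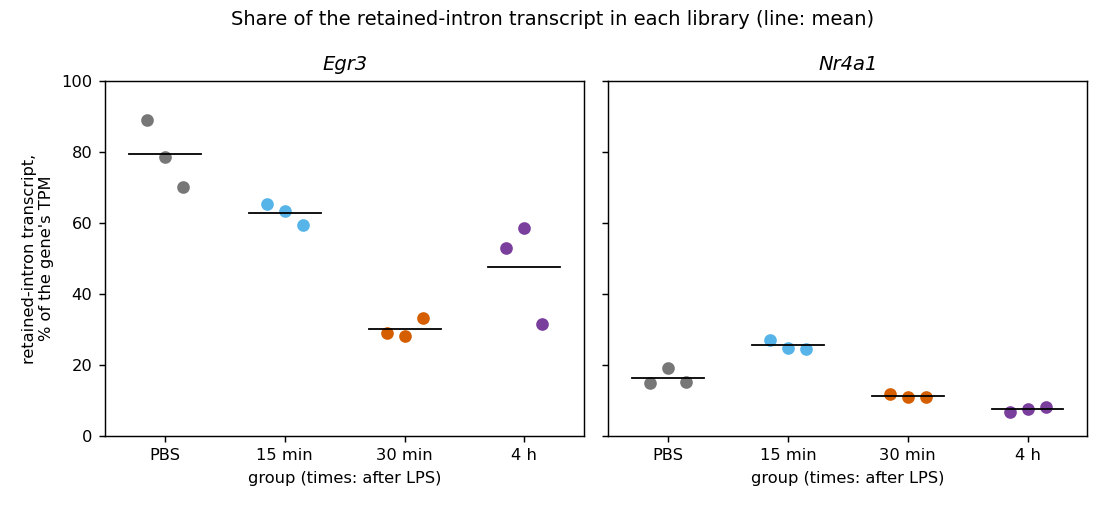
Share of the retained-intron transcript in the TPM of Egr3 and of Nr4a1 in each library, by group, with group means as lines. For Egr3 the share drops from a mean of 79.3% in PBS to 30.2% at 30 min, and for Nr4a1 it peaks at 25.5% at 15 min.

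Transcripts of the other members were less informative. Egr1 was divided between Egr1-202, with 74.2% to 81.5% of TPM as group means, and the longer Egr1-201, whose share was 18.5% in PBS and 25.8% at LPS 30 min. Egr4 has a single transcript in the annotation used. For Egr2, each PBS library gave all of its few fragments to a different transcript, and Egr2-201 held 95.2% at LPS 30 min. For Nr4a3 the shares of both main transcripts overlapped between PBS and each LPS group. Nr4a2-201, a protein-coding transcript, held 15.0% to 37.2% of TPM in PBS and 37.5% to 60.8% at LPS 15 min, and an Nr4a2 transcript subject to nonsense-mediated decay (Nr4a2-206) ranged from 0% to 60.8% between libraries at LPS 4 h.

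Since the members moved together early, the RefSeq bases just before their starts were searched for short motifs on both strands. The promoter table (build GRCm38.p6) holds 5 of the 7 members, Egr2, Egr4, Nr4a1, Nr4a2, and Nr4a3. The 250 bases before the start of Nr4a1, Nr4a2, and Egr4 are printed to show how differently the Nr4a1 and Nr4a2 windows and that of Egr4 are composed, with only the 98 bases before the first annotated exon for Nr4a3 and a stretch of 28 bases for Egr2. Capitals mark the TGACG core of the cyclic AMP response element (or its reverse complement, CGTCA), the Egr site GCGNGGGCG, the CArG box of SRF, and the κB site.
Nr4a1, chr15:101266596-101266845, plus strand: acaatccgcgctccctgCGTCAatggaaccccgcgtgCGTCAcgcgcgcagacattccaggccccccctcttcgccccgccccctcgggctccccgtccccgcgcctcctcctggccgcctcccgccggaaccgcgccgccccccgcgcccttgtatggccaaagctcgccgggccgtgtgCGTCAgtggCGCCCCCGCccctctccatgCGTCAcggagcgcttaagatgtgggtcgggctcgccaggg
Nr4a2, chr2:57124004-57124253, minus strand: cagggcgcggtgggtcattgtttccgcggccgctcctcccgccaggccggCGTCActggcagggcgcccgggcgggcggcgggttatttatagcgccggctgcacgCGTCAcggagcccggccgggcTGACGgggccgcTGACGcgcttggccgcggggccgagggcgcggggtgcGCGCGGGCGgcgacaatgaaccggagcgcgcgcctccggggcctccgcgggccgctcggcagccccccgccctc
Egr4, chr6:85513590-85513839, minus strand: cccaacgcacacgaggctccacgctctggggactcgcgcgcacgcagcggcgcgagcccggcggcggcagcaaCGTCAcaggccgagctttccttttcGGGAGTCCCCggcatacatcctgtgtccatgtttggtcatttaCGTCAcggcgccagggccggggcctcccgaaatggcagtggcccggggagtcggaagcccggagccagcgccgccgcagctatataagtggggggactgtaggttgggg
Nr4a3, chr4:48045055-48045152, plus strand: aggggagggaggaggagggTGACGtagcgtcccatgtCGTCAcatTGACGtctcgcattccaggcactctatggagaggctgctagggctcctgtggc
Egr2, chr10:67537791-67537818, plus strand: ctcagtCCATATATGGgcagcgaCGTCA

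The core TGACG was present in the 250 bases before the start of each of these genes: 4 times for Nr4a1, 4 for Nr4a2, 4 for Nr4a3, 2 for Egr4, and 2 for Egr2 (at the start of Egr2-201). For Nr4a3 the RefSeq start (48045305) lies inside the gene as annotated here, so 3 of its 4 matches are in the 98 bases printed and the fourth, 147 to 143 bases before that start, is within the annotated exon. Over 32817 promoter windows of this length 17.7% held it. The full element TGACGTCA, in 1.55% of all windows, was in none of them. The Egr site was found in Nr4a1, 60 to 52 bases before the start, and in Nr4a2, 74 to 66 bases before it, and in 4.7% of all windows. In both it overlaps a GC box (GGGCGG, in 32.7% of windows). The CArG box, in 1.47% of windows, was found in Egr2 at 72 to 63 bases before the start, and the κB site, in 3.9%, in Egr4 at 152 to 143. For the TATA box only the string TATAAA was searched (12.4% of windows). It was matched in Nr4a2 alone, as its reverse complement, 164 to 159 bases before the start. The Egr4 window holds tatataag near its end, which that string does not match, and variant forms were not searched. No window held the Nr4a site AAAGGTCA (1.34%) or the AP-1 site TGANTCA (6.75%). For Egr2, RefSeq has another start in or upstream of the window used, and no window of that start was kept. The 28 bases printed for Egr2 run from just before the CArG box to the core that follows it. A match is a run of letters in its window, with no measure of binding. The Nr4a2 window lies before the start shared by Nr4a2-203 and Nr4a2-206. The bases before Nr4a2-201, which starts at 57115038, were not searched. By the estimates, the mean of Nr4a2-201 went from 2.98 TPM in PBS to 9.22 at 15 min and 10.4 at 30 min. That of Nr4a2-203 went from 5.86 to 6.67 and 7.84 TPM.

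The Nr4a genes were next set among the 49 nuclear receptors listed, of which 40 passed the filter. By mean TPM Nr4a1 ranked 12 in PBS, below Thra, Nr1h2, and Nr1d1 (145, 140, and 137 TPM), which encode a thyroid hormone receptor, an oxysterol receptor, and a clock repressor. It ranked 1 at LPS 15 min (296 TPM) and at LPS 30 min (783 TPM, with Nr1h2 next at 142), and 2 at LPS 4 h. Nr4a1, Nr4a3, and Nr4a2 had the 3 largest log2 fold changes of the 40 at 30 min. Of the 37 other receptors tested, 1 was called at that time, the clock gene Nr1d2 (0.75 ± 0.04), and the median of the 37 was -0.05. At LPS 4 h 4 of the 37 were called higher and 7 lower, where 19% and 13.8% of all genes were. Vdr, the vitamin D receptor, then had the largest rise (3.63 ± 0.47) from 0.308 to 3.94 CPM, ahead of Nr4a3 and Nr4a1. Among the retinoid X receptors, partners of Nr4a1 and Nr4a2, Rxra fell by 1.36 ± 0.07 at 4 h, and Rxrb (-0.45) and Rxrg (-0.10) were not called.

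**Figure D5:**
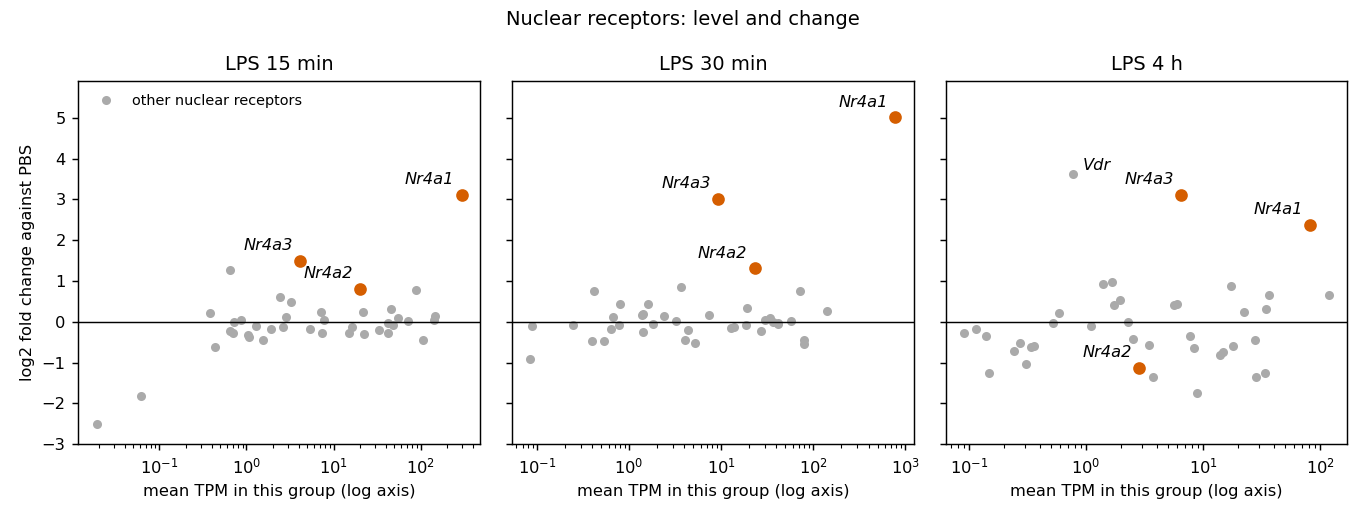
Mean TPM in the group (log axis) and log2 fold change against PBS of the nuclear receptors past the filter at LPS 15 min, LPS 30 min, and LPS 4 h; orange points are Nr4a1, Nr4a2, and Nr4a3 and grey points the other 37. At 30 min the 3 Nr4a genes lie above all others, and at 4 h Vdr is the highest and Nr4a2 is among those below 0.

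Of the factors that act on the promoters of the members, none was called at LPS 15 min and 2 at LPS 30 min, Srf and Crem. Of 6 genes of SRF, its ternary complex partners, and the MRTF coactivators, values at LPS 15 min ran from -0.29 to 0.49, and the 1 called at LPS 30 min was Srf itself (0.85 ± 0.05). At LPS 4 h Elk4 was higher (1.34 ± 0.04), and Elk3 (-1.52 ± 0.05) and Mrtfb (-0.72 ± 0.03) were lower. Of 10 genes of the CREB, CRTC, and MEF2 families, the 1 called at 30 min was Crem (0.95 ± 0.07), which encodes activators and repressors of cyclic AMP responses. At 15 min Crem was at 0.74 ± 0.07 and Mef2b at -2.11 ± 0.69, neither called, and the other 8 lay between -0.30 and 0.25. Crem reached 2.24 ± 0.07 at 4 h, when Crtc2 was also higher (1.05 ± 0.05) and Crtc1 lower (-0.70 ± 0.06). Sp1, Sp3, and Sp4, other factors of GC-rich sites, had values from -0.33 to 0.43 at the 3 times and did not pass the test, and Wt1 did not pass the filter.

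Of the NAB co-repressors, Nab1 was at 65.6 ± 1.17 CPM (SD, n = 3) in PBS and 191 ± 3.46 CPM at LPS 4 h. That is a log2 rise of 1.55 ± 0.03 (adjusted p = 1.71e-18). Nab1 was not called at 15 min (0.05) or 30 min (0.17). Nab2, itself known as an Egr target, differed from PBS by 0.49, 0.43, and 0.33 (SE 0.06 each) at the 3 times and was not called.

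The RNA levels of reported targets of the factors were listed. Protein and activity of the factors were not measured, so these levels do not show whether a factor acted. Of 11 Egr1 targets reported in vascular cells, 1 was called higher and 1 lower at LPS 15 min, 1 higher at LPS 30 min, and 6 higher and 1 lower at LPS 4 h, where 19% and 13.8% of all genes were called. The median of the list was -0.10, -0.07, and 0.83. Icam1, an adhesion molecule for leukocytes, was 1.36 ± 0.03, 4.82 ± 0.03, and 5.77 ± 0.03 above PBS on the log2 scale. The other genes called higher at 4 h were Fgf2 (2.33) and Pdgfa (1.99), both growth factors, Plau (1.65), Mmp14 (1.40), and Tgfb1 (0.83). Mmp14 had been the gene called lower at 15 min (-0.96 ± 0.07). Pdgfb, the endothelial signal to pericytes, was lower at 4 h (-0.95 ± 0.03), and F3, the tissue factor gene often cited as an Egr1 target, was at -0.34, 0.38, and 0.01 and not called. Icam1 is also a reported target of other factors.

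Of 9 Nr4a targets reported in other tissues 6 were tested. G6pc was the 1 called higher at LPS 15 min (2.44 ± 0.56), from 0.193 to 1.09 CPM, and Pomc the 1 called lower at LPS 4 h (-2.33 ± 0.16). At LPS 30 min, when Nr4a1 RNA was highest, none was called and the median was 0.11. Values ran from -0.93 ± 0.44 for Slc6a3 to 1.60 ± 0.59 for G6pc. Th (-0.08), Pomc (-0.11), Slc18a2 (0.29), and Eno3 (0.48) lay between them.

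To see which genes shared a time course with each member, the 14581 genes that averaged 50 or more counts outside the 7 members were ranked by the mean absolute difference of their 3 log2 fold changes from those of the member. Nearest to Egr1 were Ccn1 (mean difference 0.32), a secreted matrix protein, Junb (0.34), a subunit of AP-1, and Zfp36 (0.44), which promotes decay of cytokine mRNA. Ccn1 and Btg2, an antiproliferative early gene, were also the nearest of these to Nr4a1 (0.49 and 0.55), and Fosb (0.56) came next. For Egr2 and Egr3 the first place went to Mb, the myoglobin gene (0.44 and 0.43), at 0.416 CPM in PBS and 13.8 CPM at LPS 30 min, followed by Ccn1 for Egr2 (0.46) and by Btg2 for Egr3 (0.55). Other members, kept out of that ranking, were nearer still in 3 cases: Egr3 to Egr2 (0.38), and Egr3 and Nr4a1 to each other (0.35).

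The remaining members, Egr4, Nr4a2, and Nr4a3, had other neighbours. Egr4 was nearest to Lao1 (0.46), Ciart (0.47), and Per2 (0.48), the latter pair clock genes. Nr4a2 was nearest to G0s2 (0.05), a regulator of lipolysis, Mknk2 (0.15), a kinase of the translation factor eIF4E, and Slc2a1 (0.16), the glucose transporter of brain endothelium. Slc2a1 had a mean of 2735 CPM in PBS, 4455 at 15 min, 5514 at 30 min, and 1324 at 4 h. Nr4a3 was nearest to Plk3 (0.24), Aqp4 (0.33), and Nfkbia (0.38), the inhibitor of NF-κB. For Aqp4 the normalized table of the authors gave -0.58, 0.25, and 0.23 in place of 1.5, 2.65, and 2.49, and it ranked 7962 there. Mb was at 0.67, 3.92, and 1.78 in that table in place of 1.49, 5.01, and 2.71, and ranked 29 for Egr2 and 12 for Egr3. The other genes named here ranked between 1 and 6 in it for their member. The 7 patterns share the PBS libraries with these genes, and the difference carries no test.

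Markers of other cells moved with some of these values. The summed level of 10 neuronal markers, all detected in each group, lay between 583 and 603 CPM in PBS. It was higher at LPS 15 min, between 850 and 877 CPM, and lower at both later times, between 546 and 554 CPM and then between 454 and 465 CPM. At 15 min 3 of the 10 were called, Slc17a7 (1.24 ± 0.04), Camk2a (0.89 ± 0.03), and Syt1 (0.70), while Stmn2 (-0.38), Tubb3 (-0.13), and Nefl (-0.11) had negative values that were not called. Of 6 activity-regulated genes of neurons, 4 were higher at LPS 15 min: Arc (2.23 ± 0.07), Nptx2 (1.15 ± 0.13), Homer1 (1.03 ± 0.06), and Npas4 (0.97 ± 0.09). At LPS 30 min Arc was the 1 called (1.85 ± 0.07). The part of neuronal RNA in the 15 min rise of Egr3, Egr4, Nr4a2, and the other members was not tested.

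The summed level of 7 neutrophil markers lay between 2.36 and 2.83 CPM in PBS. It was between 1.02 and 1.59 CPM at LPS 15 min and between 3.36 and 5.98 CPM at LPS 30 min, and reached 196 to 200.2 CPM at LPS 4 h. At 15 min and in PBS 1 of the 7 was at 0. None of these ranges overlapped that of PBS, and S100a9 was called lower at 15 min (-1.89 ± 0.26). The part of neutrophil RNA in the members' levels was not tested, nor was that of the endothelial sum given above. Markers of smooth muscle cells summed to 2133 to 2175 CPM at 15 min against 3161 to 3205 CPM in PBS. Markers of astrocytes summed to 834 to 861 CPM in PBS, to 649 to 698 CPM at 15 min, and to 1497 to 1562 CPM at 4 h. At 15 min Gfap was called lower (179 to 77.9 CPM as means), and the other astrocyte markers were not called. At 4 h Gja1 (74.6 in PBS to 522 CPM), Gfap, and Aqp4 were called higher. Gfap (0.65 ± 0.04, adjusted p = 0.04995) was at the edge of the threshold, and its mean TPM was 115 in PBS and 95.6 at 4 h. Aqp4 varied widely between libraries, at 2.91 ± 2.07 CPM (SD, n = 3) in PBS and 16.6 ± 10.3 CPM at 4 h. Its log2 fold change was 2.49 ± 0.65, against 0.23 in the normalized table of the authors. None of the 8 was called lower then, where 19% of all genes were called higher and 13.8% lower. Markers of microglia summed to 97.2 to 103 CPM at 4 h against 159 to 164 CPM in PBS. Those of perivascular macrophages summed to 178 to 183 CPM at 4 h against 112 to 119 CPM in PBS.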

How the data were processed

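Libraries were made from total RNA of cerebral vessels that had been homogenized, spun through dextran and caught on a nylon mesh. Full-length cDNA was amplified and read as paired ends without strand. Per the labels the authors ran Salmon 1.2.1 and DESeq2 on GRCm38.p6; the transcript files they deposited hold estimated counts and TPM, and the gene table they deposited holds a normalized signal, counts divided by size factors and transcript length factors. Transcripts were joined to GENCODE M21 (0.482% to 0.850% of fragments were not), and estimated counts were summed to genes and rounded. In edgeR 4.0.16 under R 4.3.3, filterByExpr (minimum count 10, total 15, share 0.7), TMM, glmQLFit without robust priors, and glmTreat (testing against a log2 change of 0.58) were run on all 12 libraries, with Benjamini-Hochberg adjustment over 19150 genes and 8 residual degrees of freedom. A test of 3 libraries against 3 on a single gene cannot go below an exact p of 0.1. Family ratios used counts plus 0.5 and an exact two-sided permutation test over 15400 partitions. Sequences are from RefSeq. No annotated gene overlaps a member. Replicates within a group differed by 2.21 to 2.81 times the counting variance. The common biological coefficient of variation, the spread beyond counting, was 0.0524. The fits were tested on simulated data.

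The members, the lists, and the rule for named genes (the members, the list genes, and the 3 nearest genes by time course) were chosen with earlier results of these data known. A gene of the Egr1 target list is not reported here and was left out of its counts and median. Alternatives were DESeq2 1.42.0, RLE factors, library size only, no filter, no fold limit, an average transcript length offset, a block for the library number, limma 3.58.1 on the gene table with 1 or 10 added, each library left out, and protein-coding transcripts only. The last was chosen after seeing the data.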

Additional observations from a re-analysis of the deposited data

Results flagged for a closer look

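Members whose change against PBS differed between 2 times after LPS, by the test of that difference (edgeR glmTreat, adjusted p below 0.05 over all genes), were as follows. From LPS 15 min to LPS 30 min the log2 difference was 2.30 for Egr1, 2.88 for Egr2, 2.75 for Egr3, 1.27 for Egr4, 1.90 for Nr4a1, and 1.51 for Nr4a3. From LPS 30 min to LPS 4 h it was -1.41 for Egr1, -1.92 for Egr2, -2.83 for Egr3, -3.16 for Egr4, -2.64 for Nr4a1, and -2.43 for Nr4a2. From LPS 15 min to LPS 4 h it was 0.90 for Egr1, 0.96 for Egr2, -1.90 for Egr4, -0.73 for Nr4a1, -1.93 for Nr4a2, and 1.62 for Nr4a3. Each difference had 3 libraries on both sides. In each the 2 groups did not overlap in CPM, as held for 47.6%, 67.5%, and 73.3% of all genes in the 3 comparisons. In TPM, without TMM factors, the LPS 15 min and LPS 4 h groups overlapped for Egr1 and Egr2. Single libraries were not tested as outliers, since groups had 3.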

How the results depend on the processing

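Of 42 log2 fold changes of members under 10 other settings (420 values), 404 kept direction and call. None of 504 values with 1 library left out changed either. With protein-coding transcripts only, Egr3 at LPS 4 h against 15 min turned from -0.08 to 0.45, and with library size only, Nr4a3 at 4 h against 30 min turned from 0.10 to -0.43; none of these was called. Calls lost were those of Nr4a2 at 15 min (0.78 with DESeq2, 0.64 with the length offset, 0.63 with limma and either amount added, 0.90 with protein-coding transcripts, adjusted p = 0.0602 to 1), of Egr4 at 30 against 15 min with limma (1.22 and 1.19), and, at 4 h against 15 min, of Egr1 (0.22) and Egr2 (0.28) with library size only and of Egr2 with limma (0.92 and 0.88). DESeq2 used a local dispersion trend, since its parametric trend converged or not with the number of processor threads; where it converged fewer genes were called, and Nr4a2 at 15 min was not called either. Calls gained were Egr4 at 4 h (-0.99) and Egr3 at 4 h against 15 min (-0.76) with library size only, and Nr4a2 at 30 against 15 min (0.50) with no fold limit.

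Counts over all genes changed more. With no fold limit 7393, 7066, and 13124 genes were called at the 3 successive times against PBS, 7153 at 30 against 15 min, 12498 at 4 h against 30 min, and 13534 at 4 h against 15 min (800, 877, 6273, 891, 5484, and 6894 with the limit). With limma on the gene table and 1 or 10 added, 406 or 385 were called at 15 min, 531 or 497 at 30 min, and 443 or 413 at 30 against 15 min. With library size only 10462 were called at 4 h, 8848 at 4 h against 30 min, and 10761 at 4 h against 15 min. That setting put the median of all genes at -0.17 at 30 min and -0.71 at 4 h. The share of called genes that were higher was then 61.4% instead of 82.6% at 30 min, 18.2% instead of 58.0% at 4 h, 37.2% instead of 57.9% at 30 against 15 min, 21.7% instead of 58.9% at 4 h against 30 min, and 18.4% instead of 54.0% at 4 h against 15 min.

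Library numbers are shared between groups, but same-numbered libraries did not deviate together (18 correlations, -0.05 to 0.07). A replicate block kept every call of the 42, with 776, 856, and 6235 genes called against PBS. Depth limits Egr2, at 17 to 45 fragments in PBS, and Egr4, at 30 to 52 at 4 h.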
